A study of Homo sapiens with 15 samples.

Results

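The genes described here are 10 members of the NF-kB system, taken by symbol from the 60649 genes counted in each library. They are the subunit genes NFKB1, NFKB2, RELA and RELB, the inhibitor and feedback genes NFKBIA, NFKBIZ and TNFAIP3, the target genes BIRC3 and ICAM1, and the ligand gene TNF. The series measured RNA by bulk sequencing in HSC-5, a human cutaneous squamous cell carcinoma line that expressed Cas9, after loss of the arginine methyltransferase PRMT5 or of its binding partner WDR77. There were 15 libraries, 3 labelled biological replicates in each of 5 conditions. The control sgNeg carried an empty vector and had the genotype WT. The guides labelled sgPRMT5#1 and sgPRMT5#2 (sgPRMT5-1 and sgPRMT5-2 below) had the genotype PRMT5 Knockout, and sgWDR77#1 and sgWDR77#2 (sgWDR77-1 and sgWDR77-2) the genotype WDR77 Knockout. All 5 conditions shared the treatment Neomycin. Whether the cells of a guide were a pool or a clone is not given in the sources used here.

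Reads on genes ranged from 5146711 (sgWDR77-1 replicate 2) to 6730428 (sgPRMT5-2 replicate 1), with a median of 5806938. Of the listed reads, 7.16% lay outside genes in sgNeg replicate 2, 6.04% in sgWDR77-1 replicate 2 and 5.70% in sgWDR77-1 replicate 3, against 2.75% to 4.26% in the other 12 libraries. Calls were also made without these 3 libraries, and named calls lost that way are said below. For sgWDR77-1 that setting leaves replicate 1 alone, so its values there rest on 1 library. For the pathway genes PTGS2, PLAU, SHARPIN and OTULIN, only losses on leaving out 1 library are named. Levels are in CPM (counts scaled to a common library size), with trimmed means of M values as the scaling between libraries. Differences are log2 fold changes fitted by limma voom on all 14061 genes that passed a filter on low counts. Its p-values were adjusted over those genes by the Benjamini-Hochberg method, and a gene is called at an adjusted p of at most 0.05.

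The targeted genes were examined first. PRMT5 was at 59.1, 49.6 and 67.8 CPM in sgNeg, 33.0, 35.8 and 41.4 with sgPRMT5-1 and 44.1, 44.5 and 39.4 with sgPRMT5-2. All 6 PRMT5KO libraries lay below all 3 sgNeg libraries, with the transcript at 62.4% and 72.6% of the sgNeg mean. The paper reports, from Western blots, that depleting either PRMT5 or WDR77 lowered the protein of both. These counts measure RNA and not protein. The log2 fold changes of PRMT5 were -0.67 (SE 0.132, limma voom adjusted p 0.00570) and -0.45 (SE 0.130, limma voom adjusted p 0.0114). WDR77 fell further, from 125, 114 and 119 CPM in sgNeg to 30.8, 52.0 and 53.3 with sgWDR77-1 and 26.6, 24.9 and 22.0 with sgWDR77-2. The WDR77 transcript was thus lower in every library of both WDR77 guides, at 38.0% and 20.5% of the sgNeg mean. PRMT5 shares 28.2% of its exon length with the antisense gene PRMT5-AS1 (0 to 3 counts in each library), and as the strand setting of the counting is not stated, reads from that stretch cannot be assigned. WDR77 shares 25.1% with a long non-coding RNA on its own strand (0 to 5 counts), where reads fit both genes, and 3.35% with the antisense gene ATP5PB, which was at 225 to 378 CPM.

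Of the squamous keratinocyte markers fixed for the check of the label, all 9 were detected in every library. KRT17 was the most abundant of them, and TP63 averaged 347 CPM in sgNeg. KRT14, a basal keratin, had only 1 to 4 counts in each library. KRT5, its usual partner, averaged 656 CPM in sgNeg, 270 with sgPRMT5-1, 55.9 with sgPRMT5-2, 40.0 with sgWDR77-1 and 91.3 with sgWDR77-2. By limma voom KRT5 was called lower with every guide (log2 fold changes -1.27, -3.53, -4.02 and -2.82), as was the desmosomal gene DSG3 (-0.49, -0.87, -0.98 and -0.66), though with sgPRMT5-1 the DSG3 call was lost without replicate 2 or 3 of sgNeg or of sgPRMT5-1 (limma voom adjusted p 0.0709 to 0.145), and without the 3 libraries over 5% outside genes (limma voom adjusted p 0.0515). These 2 were all that fell among the 8 squamous markers tested, and 0, 1, 1 and 2 rose with the PRMT5 guides and then the WDR77 guides, namely CDH1 with all but sgPRMT5-1 and KRT17 with sgWDR77-2. The CDH1 call with sgWDR77-2 (0.36) was lost without sgNeg replicate 2 or sgWDR77-2 replicate 2 (limma voom adjusted p 0.0626 and 0.0563). For the 0, limma-trend also called 0, and 1 marker had an unadjusted p under 0.05.

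Of 12 markers of blood, stromal and endothelial cells, 3 to 6 were detected in each library, with a summed level of 21.9 to 51.3 CPM. The endothelial gene CDH5 was the most abundant of these in 14 libraries. In sgNeg replicate 2 it was level with the collagen gene COL1A1, at 86 counts each. CD3E and COL1A2 were at 0 in every library. The summed level was highest in the sgWDR77-1 libraries, at 43.2, 43.1 and 51.3 CPM, where CDH5 was called higher (log2 fold change 0.80, limma voom adjusted p 0.00325). Without the 3 libraries over 5% outside genes, with 1 sgWDR77-1 library left, the CDH5 log2 fold change was 0.65. Of the 3 markers tested, VWF (-2.28, named after its value was seen) and COL1A1 (-0.65) were called lower with sgPRMT5-2. VWF had only 1 to 21 counts in a library, and limma-trend called 1 marker lower with this guide. With sgPRMT5-1 and sgWDR77-2, limma voom and limma-trend called 0 (1 and 0 at an unadjusted p under 0.05). The COL1A1 call was lost without sgNeg replicate 1 or 2 or sgPRMT5-2 replicate 1 or 2 (limma voom adjusted p 0.101 to 0.190), and without the 3 libraries over 5% outside genes (limma voom adjusted p 0.0887). The part of these markers in the results was not tested.

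NF-kB proteins bind DNA as dimers of subunits from a single family. In resting cells inhibitors of the IkB type hold them in the cytoplasm, and signals from cytokine receptors trigger the breakdown of these inhibitors, so that the dimers enter the nucleus. Among the genes they switch on are their own inhibitors, which closes a feedback loop, and genes of inflammation and cell survival, and in keratinocytes the pathway is known for its part in skin inflammation.

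Because the pathway is defined by a DNA element, the upstream sequences of the members were searched for the NF-kB (kappaB) consensus on both strands. The RefSeq promoter table (GRCh38.p14) held 9 of the 10 members with 14 start sites; RELB was not among them. In the 250 bases upstream of a start, 6 members had at least 1 match, and 8 of the 14 start sites did. Of all 35116 promoters in that table, 9.96% had at least 1 match and 1.72% at least 2. NFKB1, NFKB2, NFKBIA, NFKBIZ, TNFAIP3 and BIRC3 had matches, and RELA, ICAM1 and TNF had none in these windows. A match describes letters only. Of the 10 stretches with matches, 7 are printed next to show at least 1 for each of these 6 members, in the direction of the gene, with the matches in capitals. They are chr4:102501285-102501344 (NFKB1, plus strand, 15 of 60 bases in an annotated exon), chr14:35404796-35404855 (NFKBIA, minus strand, no exon base) and chr3:101827742-101827801 (NFKBIZ, plus strand, no exon base). The TNFAIP3 stretch is chr6:137867167-137867238 (plus strand, 25 of 72 bases in an exon). The BIRC3 stretches are chr11:102317260-102317319 and chr11:102317324-102317383 (plus strand, no exon base). For NFKB2 the stretch printed is chr10:102395504-102395563 (plus strand, no exon base), upstream of the third listed start and within the gene. Not printed are NFKB2 stretches with 3 matches (all 89 bases in an exon) and 1 match (12 of 46 bases), and an NFKBIZ stretch with 1 match (all 46 bases).
NFKB1: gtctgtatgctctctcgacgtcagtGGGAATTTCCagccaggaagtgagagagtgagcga
NFKB2: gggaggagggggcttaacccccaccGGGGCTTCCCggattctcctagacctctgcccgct
NFKBIA: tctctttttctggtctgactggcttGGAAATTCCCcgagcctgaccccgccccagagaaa
NFKBIZ: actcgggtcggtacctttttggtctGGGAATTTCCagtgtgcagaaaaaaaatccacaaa
TNFAIP3: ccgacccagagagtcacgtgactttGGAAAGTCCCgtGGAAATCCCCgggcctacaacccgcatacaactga
BIRC3 far match: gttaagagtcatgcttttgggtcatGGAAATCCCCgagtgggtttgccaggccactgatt
BIRC3 near match: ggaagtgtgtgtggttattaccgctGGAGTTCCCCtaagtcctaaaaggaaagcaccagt

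**Figure D1:**
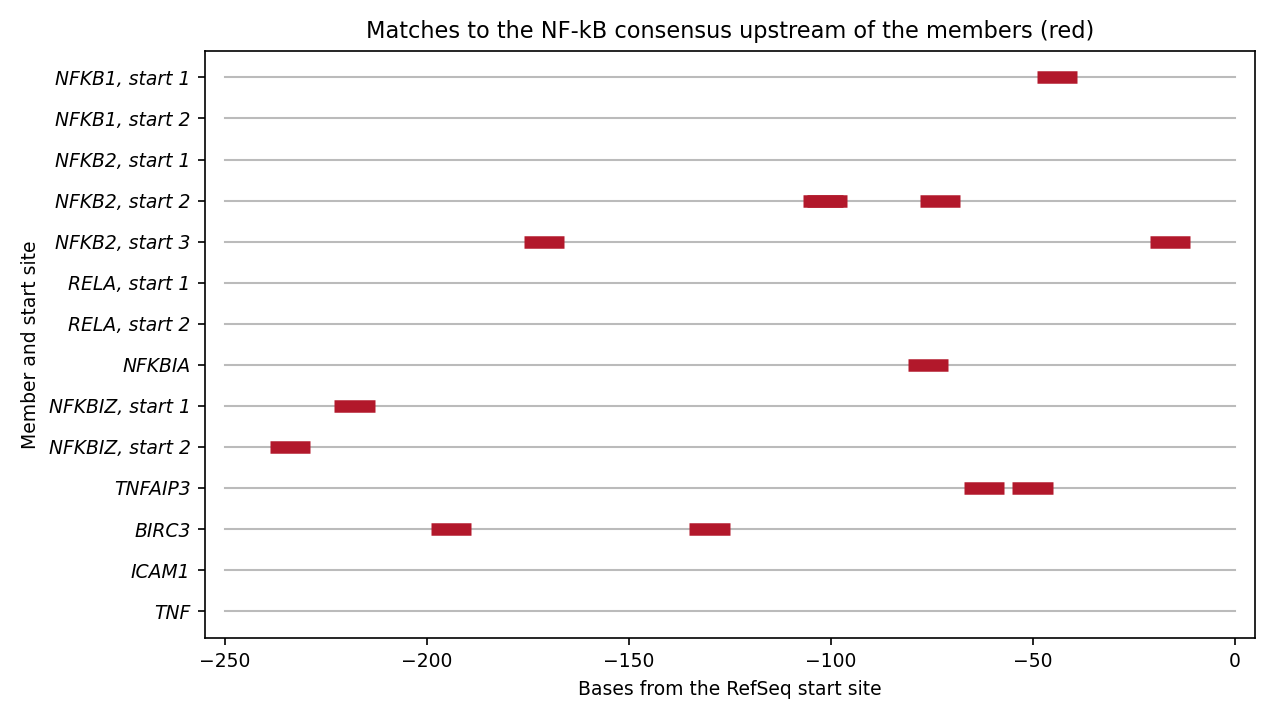
Matches to the NF-kB consensus (red) in the 250 bases upstream of each of the 14 RefSeq start sites of the members, with the distance from the start site in bases on the x axis and 1 line for each start site. Matches lie upstream of 8 start sites; the lines of RELA, ICAM1 and TNF are empty.

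The TNFAIP3 promoter had its matches at -67 and -55 from the start, the NFKB1 promoter at -49 and the NFKBIA promoter at -81. BIRC3 had matches farther upstream, at -199 and -135, and NFKBIZ at -223 from its first listed start.

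Levels of different members were compared per kilobase of exon. In sgNeg, NFKBIA had the highest level per length at 71.1 ± 11.4 CPM per kb (SD, n = 3), followed by ICAM1 at 39.3 ± 9.88 and RELA at 35.9 ± 2.21. TNFAIP3 (14.1 ± 2.44), BIRC3 (14.1 ± 2.80), NFKB2 (12.5 ± 0.229) and NFKBIZ (10.6 ± 1.65) formed a middle group in CPM per kb. NFKB1 was at 8.24 ± 0.623 CPM per kb, RELB at 5.74 ± 0.911 and TNF at 0. The libraries of ICAM1 and RELA overlapped, and so did each neighbouring pair within the middle group. NFKBIA lay above ICAM1 in every library of sgNeg, RELA above TNFAIP3, NFKBIZ above NFKB1, and NFKB1 above RELB.

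**Figure D2:**
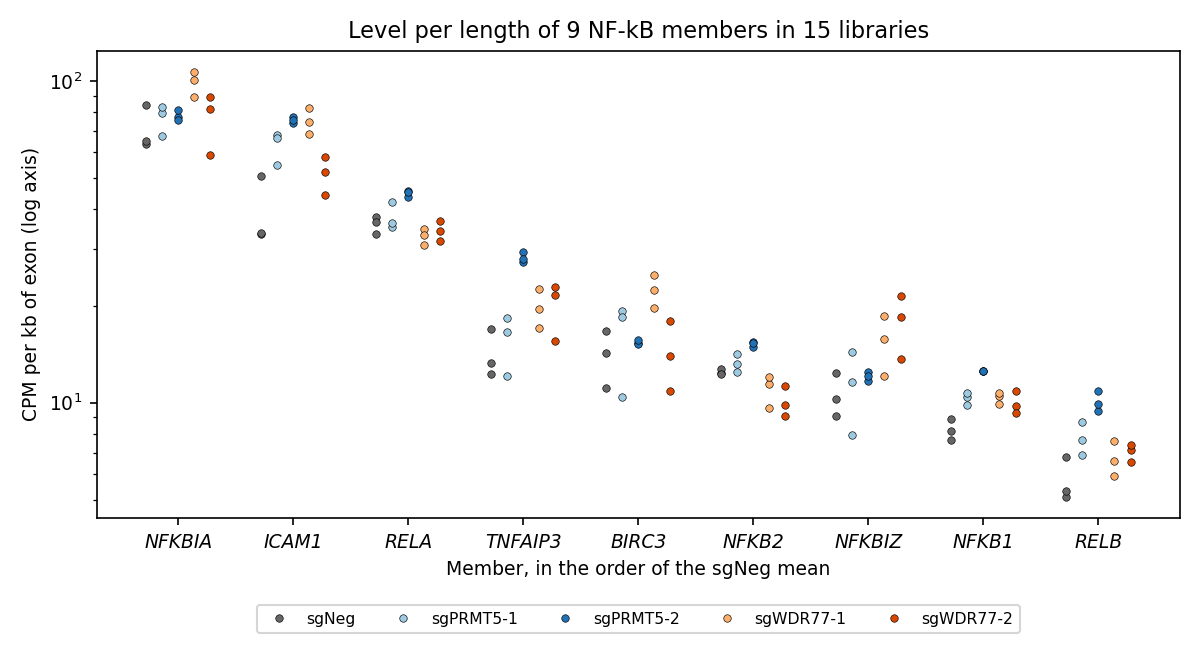
Level per length, in CPM per kb of exon on a log axis, of the 9 members with counts in sgNeg, in the order of their sgNeg means; each point is 1 of 15 libraries, coloured by condition. NFKBIA is highest and RELB lowest in sgNeg, at 71.1 and 5.74 CPM per kb.

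NFKB1 (ENSG00000109320.13, chr4:102501330-102617302, plus strand) encodes the precursor of the p50 subunit. It was at 128, 120 and 139 CPM in sgNeg (mean 129 ± 9.77, SD), 163, 154 and 168 with sgPRMT5-1, 197, 197 and 197 with sgPRMT5-2, 164, 155 and 168 with sgWDR77-1, and 171, 153 and 145 with sgWDR77-2. All 12 knockout libraries lay above all 3 sgNeg libraries. The sgPRMT5-2 libraries stood above every other library, while those of the other 3 guides overlapped. The log2 fold change against sgNeg was 0.61 with sgPRMT5-2 (95% CI 0.43 to 0.80, limma voom adjusted p 2.37e-05), and it was called in all 15 alternative settings tried. With sgPRMT5-1 the log2 fold change was 0.32 (SE 0.0890, limma voom adjusted p 0.0493), just inside the threshold. That call was lost when any 1 of the 6 libraries compared was left out, sgNeg replicates 1, 2 and 3 and sgPRMT5-1 replicates 1, 2 and 3 alike (log2 fold changes 0.26 to 0.34, limma voom adjusted p 0.0770 to 0.267), and without the 3 libraries over 5% outside genes (limma voom adjusted p 0.0964). With sgWDR77-1 it was 0.33 (SE 0.0895, limma voom adjusted p 0.0210). The sgWDR77-1 call was lost without sgNeg replicate 1 (limma voom adjusted p 0.0610), without sgNeg replicate 2 (0.0772) and without the 3 libraries over 5% outside genes (log2 fold change 0.30, limma voom adjusted p 0.0634). With sgWDR77-2 NFKB1 did not pass the test, at 0.28 (95% CI 0.09 to 0.46, limma voom adjusted p 0.0793). In bulk samples such as these, fewer cells of a kind and less RNA per cell cannot be told apart.

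RELA (ENSG00000173039.19, chr11:65653599-65663090, minus strand) encodes p65, the subunit with the main activation domain. Its levels were 206, 182 and 199 CPM in sgNeg, 193, 197 and 229 with sgPRMT5-1, 249, 238 and 247 with sgPRMT5-2, 190, 169 and 181 with sgWDR77-1, and 201, 173 and 186 with sgWDR77-2. The sgPRMT5-2 libraries lay above all 12 others. Each other guide overlapped sgNeg, while the sgPRMT5-1 libraries lay above those of sgWDR77-1. RELA rose with sgPRMT5-2 by a log2 fold change of 0.32 (SE 0.0901, limma voom adjusted p 0.00915), a call lost only without sgNeg replicate 2 among the 15 alternatives (0.27, limma voom adjusted p 0.0517). With the other guides the log2 fold changes were 0.07 (sgPRMT5-1), -0.12 (sgWDR77-1) and -0.07 (sgWDR77-2), none past the threshold.

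RELB (ENSG00000104856.14, chr19:45001461-45038192, plus strand) encodes a subunit of the non-canonical pathway and had the lowest level of the 9 members tested. It was at 20.3, 15.3 and 16.0 CPM in sgNeg, 20.6, 22.9 and 26.2 with sgPRMT5-1, 28.3, 29.7 and 32.7 with sgPRMT5-2, 17.7, 19.8 and 22.8 with sgWDR77-1, and 21.4, 22.1 and 19.6 with sgWDR77-2. Libraries of sgPRMT5-2 were again the highest, those of sgPRMT5-1 lay just above sgNeg, and both WDR77 guides overlapped sgNeg. RELB rose with sgPRMT5-2 by a log2 fold change of 0.82 (95% CI 0.52 to 1.12, limma voom adjusted p 0.000206), called in all 15 alternatives. With sgPRMT5-1 the difference of 0.43 (95% CI 0.12 to 0.74, limma voom adjusted p 0.126) did not pass.

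NFKB2 (ENSG00000077150.20, chr10:102394110-102402524, plus strand) encodes the precursor of p52, the usual partner of RELB. Levels were 69.2, 71.2 and 68.7 CPM in sgNeg, 79.3, 69.8 and 73.8 with sgPRMT5-1, 83.5, 86.2 and 85.4 with sgPRMT5-2, 53.8, 64.0 and 67.3 with sgWDR77-1, and 63.2, 54.8 and 50.8 with sgWDR77-2. Here sgPRMT5-2 lay above all sgNeg libraries and both WDR77 guides below them, while sgPRMT5-1 overlapped sgNeg. The rise with sgPRMT5-2 was 0.29 on the log2 scale (SE 0.102, limma voom adjusted p 0.0373). It was lost without any 1 of sgNeg replicates 1, 2 and 3 or sgPRMT5-2 replicates 1, 2 and 3 (log2 fold changes 0.24 to 0.30, limma voom adjusted p 0.0706 to 0.134). It was also lost with RLE factors (0.26, limma voom adjusted p 0.0534), library totals alone (0.20, limma voom adjusted p 0.162), no filter on low counts and the replicate block, and so was called in 5 of 15 alternatives. Neither WDR77 guide passed the test, with log2 fold changes of -0.18 (limma voom adjusted p 0.311) and -0.32 (limma voom adjusted p 0.0914). Without sgWDR77-2 replicate 1, the latter was -0.43 (limma voom adjusted p 0.0499), and without sgWDR77-2 replicate 3 it was -0.28 (limma voom adjusted p 0.207).

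**Figure D3:**
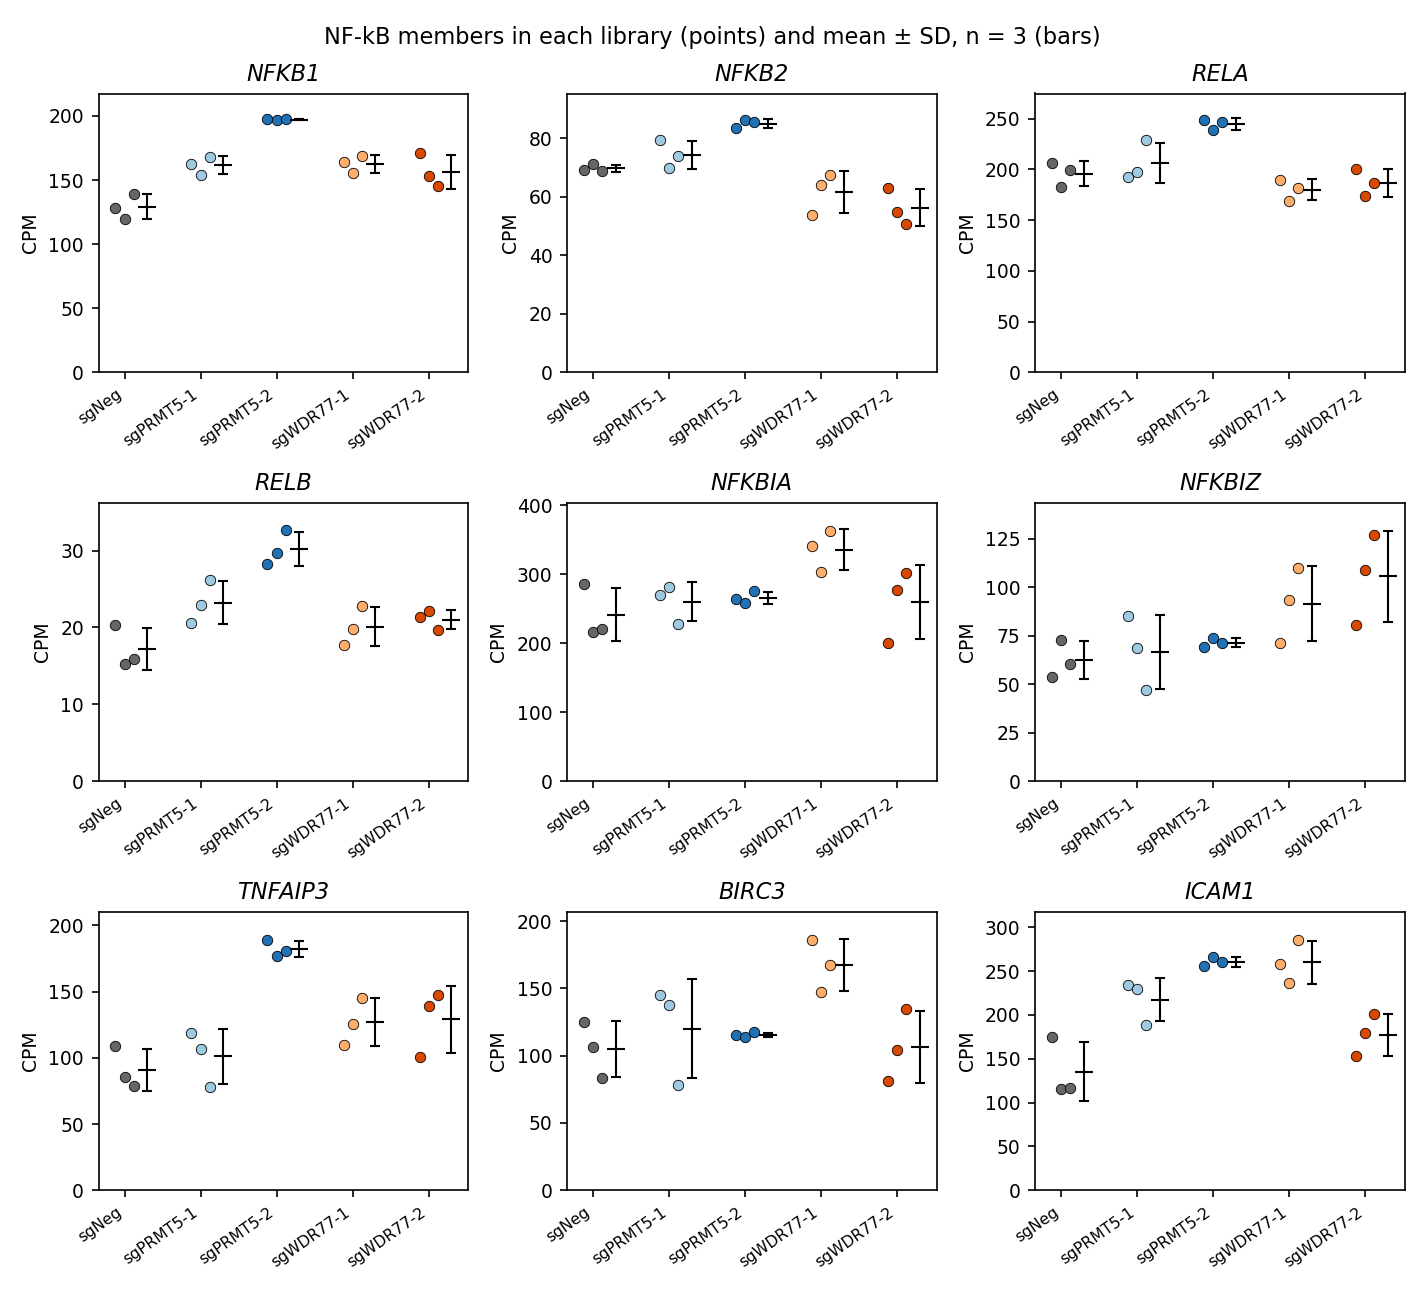
Level in CPM (y axis, from 0) of 9 members in each of the 15 libraries (points, by condition on the x axis) with the mean ± SD of 3 libraries (bars); TNF, with at most 1 count in a library, is not drawn. The sgPRMT5-2 libraries are the highest for NFKB1, NFKB2, RELA, RELB and TNFAIP3, and the sgWDR77-1 libraries for NFKBIA and BIRC3.

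NFKBIA (ENSG00000100906.11, chr14:35401079-35404749, minus strand) encodes IkB alpha, the inhibitor that is broken down and then made again after a signal. It was at 286, 217 and 221 CPM in sgNeg, 270, 281 and 228 with sgPRMT5-1, 263, 258 and 276 with sgPRMT5-2, 341, 303 and 362 with sgWDR77-1, and 200, 277 and 302 with sgWDR77-2. The sgWDR77-1 libraries lay above all others, and sgNeg replicate 1 was well above the other sgNeg libraries. NFKBIA rose with sgWDR77-1 by a log2 fold change of 0.48 (SE 0.130, limma voom adjusted p 0.0209). This call was lost without sgNeg replicate 2 (0.41, limma voom adjusted p 0.0909), without sgNeg replicate 3 (0.40, limma voom adjusted p 0.129) and without sgWDR77-1 replicate 3 (0.42, limma voom adjusted p 0.0560). Without the 3 libraries over 5% outside genes it was 0.44 (limma voom adjusted p 0.0899). With the other guides the log2 fold changes were 0.11 (sgPRMT5-1), 0.15 (sgPRMT5-2) and 0.10 (sgWDR77-2), none past the threshold.

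NFKBIZ (ENSG00000144802.11, chr3:101827991-101861022, plus strand) encodes IkB zeta, a nuclear member of the inhibitor family that acts as a co-regulator of some NF-kB targets. Its levels were 53.5, 72.8 and 60.6 CPM in sgNeg, 84.9, 68.4 and 46.9 with sgPRMT5-1, 69.0, 73.8 and 71.4 with sgPRMT5-2, 71.3, 93.1 and 110 with sgWDR77-1, and 80.7, 109 and 127 with sgWDR77-2. All sgWDR77-2 libraries exceeded all sgNeg libraries, while those of the other guides overlapped sgNeg. The replicates spread widely, from 46.9 to 84.9 CPM with sgPRMT5-1. NFKBIZ rose with sgWDR77-2 by a log2 fold change of 0.75 (SE 0.186, limma voom adjusted p 0.0192). The call was lost without sgNeg replicate 1 (0.61, limma voom adjusted p 0.133), sgNeg replicate 3 (0.69, limma voom adjusted p 0.0881), sgWDR77-2 replicate 2 (0.68, limma voom adjusted p 0.105) or sgWDR77-2 replicate 3 (0.57, limma voom adjusted p 0.121). With sgWDR77-1 the difference was 0.54 (95% CI 0.15 to 0.93, limma voom adjusted p 0.0718), passing at 0.72 without sgWDR77-1 replicate 1 (limma voom adjusted p 0.0158) and with upper-quartile factors. It was 0.39 without sgWDR77-1 replicate 3 (limma voom adjusted p 0.209) and 0.33 without the 3 libraries over 5% outside genes (limma voom adjusted p 0.412). NFKBIZ shares 3.29% of its exon length with NXPE3, on the same strand.

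TNFAIP3 (ENSG00000118503.15, chr6:137867214-137883314, plus strand) encodes A20, a ubiquitin-editing enzyme that shuts the pathway down, and its promoter carries the paired matches printed above. It was at 109, 85.5 and 78.9 CPM in sgNeg (mean 91.1 ± 15.8, SD), 119, 107 and 78.1 with sgPRMT5-1, 189, 177 and 181 with sgPRMT5-2 (mean 182 ± 6.36, SD), 110, 126 and 145 with sgWDR77-1, and 101, 139 and 147 with sgWDR77-2. The sgPRMT5-2 libraries lay above every other library, and those of sgPRMT5-1 overlapped sgNeg. TNFAIP3 rose with sgPRMT5-2 by a log2 fold change of 1.01 (95% CI 0.70 to 1.33, limma voom adjusted p 3.75e-05), and was called in all 15 alternatives. This was the largest of the members in that comparison as reported, with ICAM1 close to it at 0.97. When 1 library was left out, ICAM1 reached 1.15, above the highest TNFAIP3 value under any alternative (1.13). With sgPRMT5-1 TNFAIP3 was at 0.14 (95% CI -0.18 to 0.47, limma voom adjusted p 0.686). With sgWDR77-1 all 3 libraries were above sgNeg, but the difference of 0.48 did not pass (limma voom adjusted p 0.0529). It passed without sgNeg replicate 1 (0.60, limma voom adjusted p 0.0390) or sgWDR77-1 replicate 1 (0.59, limma voom adjusted p 0.0194), with upper-quartile factors and with limma-trend. Without the 3 libraries over 5% outside genes it was 0.24 (limma voom adjusted p 0.494), the lowest of the 15 alternatives. With sgWDR77-2 the difference was 0.50 (limma voom adjusted p 0.0680), passing at 0.64 without sgWDR77-2 replicate 1 (limma voom adjusted p 0.0241) and with upper-quartile factors, and lowest at 0.36 without sgNeg replicate 3 (limma voom adjusted p 0.278).

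BIRC3 (ENSG00000023445.16, chr11:102317484-102339403, plus strand) encodes an inhibitor of apoptosis protein that also acts as a ubiquitin ligase in the pathway. It was at 125, 107 and 83.4 CPM in sgNeg, 145, 138 and 77.9 with sgPRMT5-1, 115, 114 and 117 with sgPRMT5-2, 186, 148 and 168 with sgWDR77-1, and 81.5, 104 and 135 with sgWDR77-2. Only the sgWDR77-1 libraries lay wholly above sgNeg. BIRC3 rose with sgWDR77-1 by a log2 fold change of 0.68 (SE 0.187, limma voom adjusted p 0.0253). The BIRC3 value was 0.86 without the 3 libraries over 5% outside genes, which leaves only sgWDR77-1 replicate 1. The call was lost without sgNeg replicate 2 (0.70, limma voom adjusted p 0.0547), sgNeg replicate 3 (0.50, limma voom adjusted p 0.173) or sgWDR77-1 replicate 1 (0.60, limma voom adjusted p 0.0573). With the other guides the log2 fold changes were 0.16 (sgPRMT5-1), 0.15 (sgPRMT5-2) and 0.01 (sgWDR77-2), none past the threshold.

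ICAM1 (ENSG00000090339.9, chr19:10271093-10286615, plus strand) encodes an adhesion molecule that leukocytes bind, a classical target of the pathway. It was at 175, 115 and 116 CPM in sgNeg (mean 135 ± 34.1, SD), 234, 230 and 189 with sgPRMT5-1, 255, 267 and 260 with sgPRMT5-2, 258, 237 and 285 with sgWDR77-1, and 153, 179 and 201 with sgWDR77-2. Libraries of sgPRMT5-1, sgPRMT5-2 and sgWDR77-1 all lay above sgNeg, and sgWDR77-2 overlapped it because of sgNeg replicate 1. ICAM1 rose with sgPRMT5-1 by a log2 fold change of 0.71 (95% CI 0.43 to 0.98, limma voom adjusted p 0.00425). The rise with sgPRMT5-2 was 0.97 (95% CI 0.70 to 1.25, limma voom adjusted p 1.34e-05). That with sgWDR77-1 was 0.96 (95% CI 0.69 to 1.24, limma voom adjusted p 7.78e-05). In each of these 3 comparisons ICAM1 was called under all 15 alternatives. With sgWDR77-2 the difference was 0.41 (95% CI 0.13 to 0.69, limma voom adjusted p 0.0839), passing at 0.58 without sgNeg replicate 1 (limma voom adjusted p 0.0109) and lowest at 0.27 without sgNeg replicate 3 (limma voom adjusted p 0.345). ICAM1 shares 23.6% of its exon length with the antisense gene ICAM4-AS1, which had 0 to 5 counts in each library, so reads of this stretch are uncertain.

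TNF (ENSG00000232810.4, chr6:31575565-31578336, plus strand) encodes the cytokine whose receptor is a classical trigger of the pathway. It had 0 counts in 11 libraries, 1 count in each sgPRMT5-2 library and 1 in sgWDR77-1 replicate 2. With so few counts TNF fell below the filter on low counts, so it was not tested and no fold is given. With no such filter TNF was called with sgPRMT5-2, on 1 count in each of its 3 libraries against 0 in sgNeg.

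Set side by side, the 4 guides called different numbers of members. All 4 comparisons share the sgNeg libraries. With sgPRMT5-1, 2 of the 9 members tested were called higher (NFKB1 and ICAM1), where 1.26% of all genes tested were. With sgPRMT5-2, 6 of 9 were called higher (NFKB1, NFKB2, RELA, RELB, TNFAIP3 and ICAM1), where 16.3% of all genes were. With sgWDR77-1, 4 of 9 were called higher (NFKB1, NFKBIA, BIRC3 and ICAM1), where 3.58% of all genes were. With sgWDR77-2, 1 of 9 was called higher (NFKBIZ), where 1.81% of all genes were. In each of these 13 cases, already picked by their call, the 3 guide libraries lay above the 3 sgNeg libraries. How many of all genes tested did so was not counted. By limma voom 0 of 9 members were called lower with any guide, and by limma-trend also 0. At an unadjusted p under 0.05, 1 member (NFKB2) was lower with sgWDR77-2 and 0 with the other guides. Of all genes tested 1.61% were called lower with sgPRMT5-1, 14.7% with sgPRMT5-2, 5.90% with sgWDR77-1 and 2.98% with sgWDR77-2.

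The members' median log2 fold change was 0.14 with sgPRMT5-1, 0.32 with sgPRMT5-2, 0.48 with sgWDR77-1 and 0.28 with sgWDR77-2. Over all genes tested the medians were 0.02, 0.01, -0.01 and 0.02 in the same order. Under the 15 alternatives of each comparison the members' medians ran from 0.04 to 0.27, 0.23 to 0.47, 0.30 to 0.54 and 0.19 to 0.30. The 0.04 was reached without sgNeg replicate 3, the 0.27 without sgPRMT5-1 replicate 3, and the 0.30 with sgWDR77-1 without the 3 libraries over 5% outside genes. All 9 members tested had a log2 fold change above 0 with each PRMT5 guide, and 7 of 9 did with each WDR77 guide, NFKB2 and RELA being below 0. With library totals alone or RLE factors as the scaling, 6 of 9 were above 0 with sgWDR77-2. Of all 14061 genes tested, 7487 were above 0 with sgPRMT5-1, 7095 with sgPRMT5-2, 6903 with sgWDR77-1 and 7330 with sgWDR77-2, as reported. When 1 library was left out, the lowest log2 fold changes fell below 0 for some members above 0 as reported. These were RELA (-0.04), NFKBIZ (-0.14), TNFAIP3 (-0.003) and BIRC3 (-0.04) with sgPRMT5-1. They were BIRC3 (-0.04) with sgPRMT5-2, and NFKBIA (-0.05) and BIRC3 (-0.20) with sgWDR77-2. RELB with sgWDR77-1 was as low as -0.03 under another alternative.

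**Figure D4:**
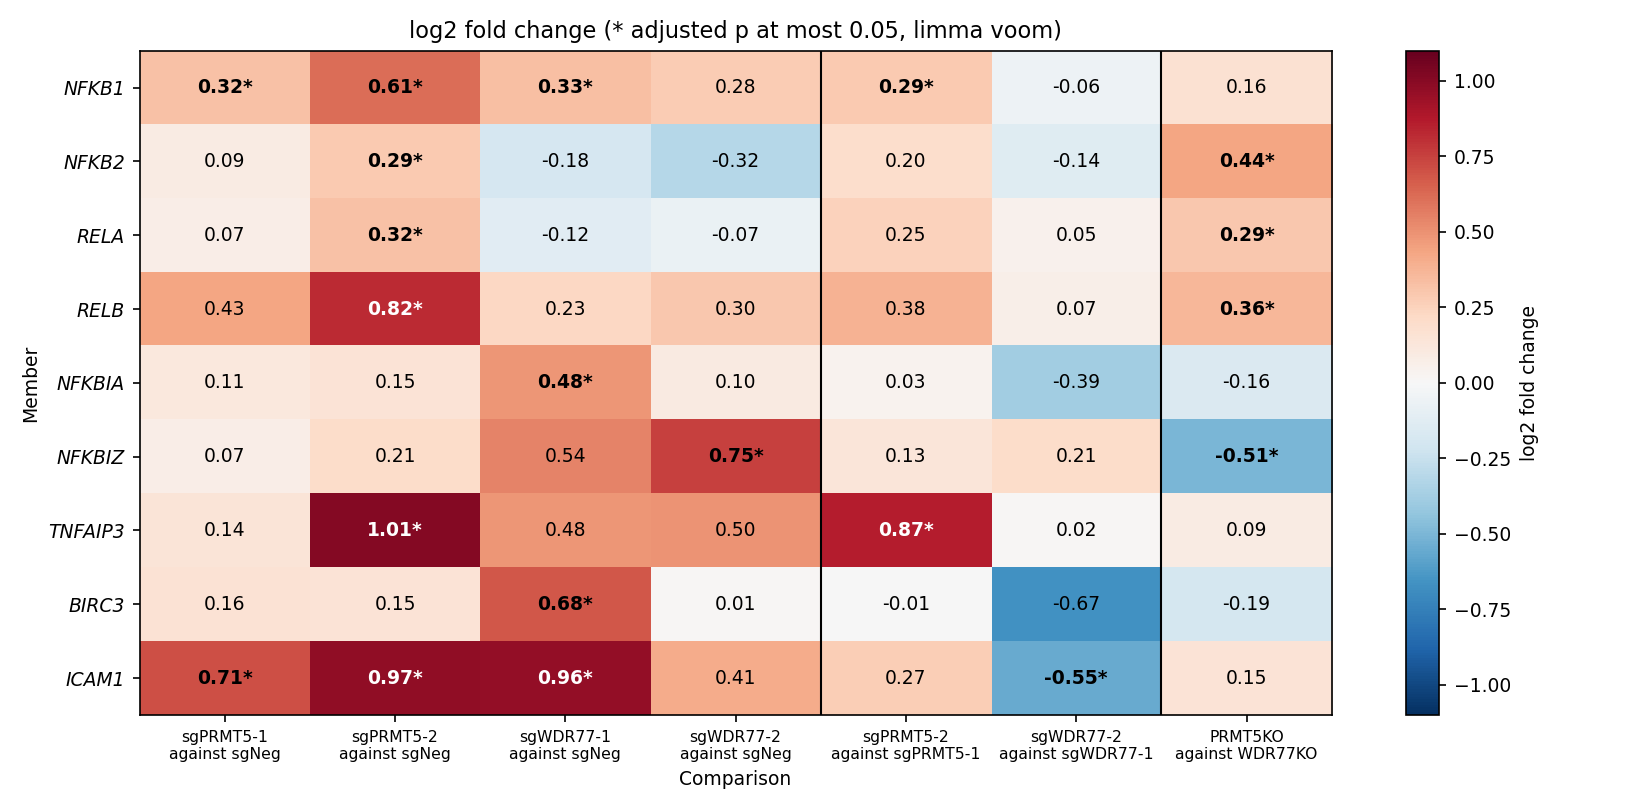
Log2 fold change (colour and number) of the 9 members tested (y axis) in 7 comparisons (x axis): each guide against sgNeg, the guides to the same gene against each other, and PRMT5KO against WDR77KO; an asterisk marks a limma voom adjusted p of at most 0.05. NFKB1 and ICAM1 are each called with 3 guides, and NFKB2 and RELA are above 0 with both PRMT5 guides and below 0 with both WDR77 guides.

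The guides to the same gene were compared directly. Against sgPRMT5-1, sgPRMT5-2 had 2 of 9 members called higher (NFKB1 and TNFAIP3), where 3.55% of all genes tested were. Called lower by limma voom were 0 of 9 (also 0 by limma-trend and at an unadjusted p under 0.05), where 3.98% of all genes were. For TNFAIP3 the difference was 0.87 (95% CI 0.56 to 1.18, limma voom adjusted p 0.000884), with no overlap between the guides, and it was called in all 14 alternatives of this comparison. For NFKB1 it was 0.29 (SE 0.0869, limma voom adjusted p 0.0443), with 3 of 3 libraries higher. The NFKB1 call was lost without any 1 of sgPRMT5-1 replicates 1 and 2 and sgPRMT5-2 replicates 1, 2 and 3 (log2 fold changes 0.26 to 0.29, limma voom adjusted p 0.106 to 0.166). RELA (0.25) and RELB (0.38) did not pass, but did without sgPRMT5-1 replicate 3 (0.34 with limma voom adjusted p 0.0176, and 0.49 with 0.0387) and with only the groups compared, RELB also with upper-quartile factors. Without sgPRMT5-1 replicate 1 they were 0.20 and 0.29 (limma voom adjusted p 0.336 and 0.342).

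Against sgWDR77-1, sgWDR77-2 had 1 of 9 members called lower (ICAM1), where 0.569% of all genes tested were. Called higher by limma voom were 0 of 9 (also 0 by limma-trend and at an unadjusted p under 0.05), where 1.84% of all genes were. The ICAM1 log2 fold change was -0.55 (95% CI -0.83 to -0.28, limma voom adjusted p 0.0303), with 3 of 3 libraries lower. The ICAM1 call was lost without sgWDR77-1 replicate 3 (-0.48, limma voom adjusted p 0.0650), sgWDR77-2 replicate 1 (-0.46, limma voom adjusted p 0.191) or sgWDR77-2 replicate 2 (-0.58, limma voom adjusted p 0.0816). NFKBIA (-0.39) and BIRC3 (-0.67) also had 3 of 3 libraries lower with sgWDR77-2 but did not pass (limma voom adjusted p 0.106 and 0.0598). BIRC3 did pass without sgWDR77-2 replicate 3, at -0.87 (limma voom adjusted p 0.0339), but was -0.50 without sgWDR77-2 replicate 1 (limma voom adjusted p 0.324). Without the 3 libraries over 5% outside genes, with 1 sgWDR77-1 library left, BIRC3 was at -0.83. The residual WDR77 transcript also differed between these guides, by -0.85 on the log2 scale (limma voom adjusted p 0.0157). Without the 3 libraries over 5% outside genes that WDR77 difference was -0.34 (limma voom adjusted p 0.245), with sgWDR77-1 left with 1 library, and its call was also lost without sgWDR77-2 replicate 1 or 2 (limma voom adjusted p 0.0674 and 0.0620).

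The mean of the PRMT5 guides was then compared with the mean of the WDR77 guides, 6 libraries against 6. The errors of this test come from the spread of libraries within a guide and do not measure the spread between guides to a gene. In PRMT5KO 3 of 9 members were called higher (NFKB2, RELA and RELB), where 15.7% of all genes tested were, and 1 was called lower (NFKBIZ), where 11.4% were. The NFKB2 difference was 0.44 (95% CI 0.28 to 0.59, limma voom adjusted p 0.000192), and all 6 PRMT5KO libraries lay above all 6 WDR77KO libraries. For RELA it was 0.29 (SE 0.0643, limma voom adjusted p 0.00196), with 4 of 6 PRMT5KO libraries above every WDR77KO library. RELA averaged 206 CPM with sgPRMT5-1 and 245 with sgPRMT5-2, against 180 with sgWDR77-1 and 187 with sgWDR77-2. For RELB the difference was 0.36 (SE 0.101, limma voom adjusted p 0.0110), with 5 of 6 above. RELB averaged 23.2, 30.2, 20.1 and 21.0 CPM in the same order. These 3 subunit genes were called in all 21 alternatives of this comparison. NFKBIZ differed by -0.51 (SE 0.130, limma voom adjusted p 0.00640) with overlapping libraries. Without the 3 libraries over 5% outside genes NFKBIZ was at -0.35 (limma voom adjusted p 0.0742). NFKB1 was at 0.16 (limma voom adjusted p 0.0532), passed without sgWDR77-2 replicate 1 (0.19, limma voom adjusted p 0.0188) and with each other filter on low counts, and was 0.10 with library totals alone (limma voom adjusted p 0.205). NFKBIA was at -0.16 (limma voom adjusted p 0.208), passed at -0.25 without sgWDR77-2 replicate 1, and was -0.10 without sgWDR77-2 replicate 3 (limma voom adjusted p 0.473).

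Other genes of the pathway were followed through 5 lists. Among kinases and adaptors, 28 of 29 genes were tested: 1 was called higher with sgPRMT5-1, 12 higher and 3 lower with sgPRMT5-2, and 1 higher with sgWDR77-1. With sgWDR77-2 the limma voom and limma-trend count was 0, with 2 at an unadjusted p under 0.05. Among deubiquitinases and other brakes, all 10 were tested, and 1, 5, 1 and 0 were called higher with the guides in the same order (for the 0, also 0 by limma-trend and 1 at an unadjusted p under 0.05). Among receptors and ligands 17 of 22 were tested, and 3, 6, 2 and 3 were called higher, with 6 called lower with sgPRMT5-2. Among other classical targets 25 of 34 were tested, and 3, 10, 6 and 2 were called higher, with 3 lower with sgPRMT5-2 and 1 lower with sgWDR77-2. By comparison, of all genes tested 1.26%, 16.3%, 3.58% and 1.81% were called higher, and 14.7% (sgPRMT5-2) and 2.98% (sgWDR77-2) lower. Under the alternatives the counts called higher ran from 0 to 1, 9 to 12, 0 to 3 and 0 to 0 for kinases and adaptors, and 1 to 1, 3 to 6, 0 to 2 and 0 to 0 for brakes. They ran from 2 to 4, 6 to 7, 1 to 3 and 2 to 4 for receptors and ligands, and 1 to 4, 9 to 12, 3 to 8 and 2 to 3 for targets. The counts called lower with sgPRMT5-2 ran from 1 to 5, 5 to 8 and 3 to 6 for kinases and adaptors, receptors and ligands, and targets. The medians of the classical targets were 0.24, 0.28, 0.26 and 0.27, with ranges under the alternatives of 0.11 to 0.32, 0.17 to 0.38, 0.17 to 0.41 and 0.06 to 0.37. Of the 5 remaining subunit and IkB genes, REL alone was called, lower with sgPRMT5-2 (log2 fold change -0.52, limma voom adjusted p 0.0357) and in 8 of 15 alternatives. The REL libraries overlapped sgNeg, and the call was lost without sgNeg replicate 1 or 2 or sgPRMT5-2 replicate 2 or 3 (limma voom adjusted p 0.106 to 0.174), and without the 3 libraries over 5% outside genes (limma voom adjusted p 0.122). With sgPRMT5-2, 0 of the 5 were called higher by limma voom, 1 by limma-trend (NFKBID), and 3 had an unadjusted p under 0.05. These 3, named after their values were seen, were NFKBIB (0.80), NFKBIE (0.38) and NFKBID (1.09), with limma voom adjusted p of 0.0560 to 0.0688, and 2, 2 and 6 of 15 alternatives called them. NFKBID passed without sgNeg replicate 2 (1.54, limma voom adjusted p 0.0344), but without sgNeg replicate 3 it was 0.50 and NFKBIB 0.51 (limma voom adjusted p 0.356 and 0.287). For these 5 genes limma voom and limma-trend called 0 with each other guide, and 0 (sgPRMT5-1), 2 (sgWDR77-1) and 1 (sgWDR77-2) had an unadjusted p under 0.05. The medians were 0.10, 0.18, -0.01 and -0.01 for kinases and adaptors, 0.14, 0.36, 0.18 and 0.13 for brakes, and -0.02, -0.11, 0.20 and 0.12 for receptors and ligands. Of the 17 receptor and ligand genes tested, 10 were below 0 with sgPRMT5-2, where 6966 of all 14061 genes tested were.

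**Figure D5:**
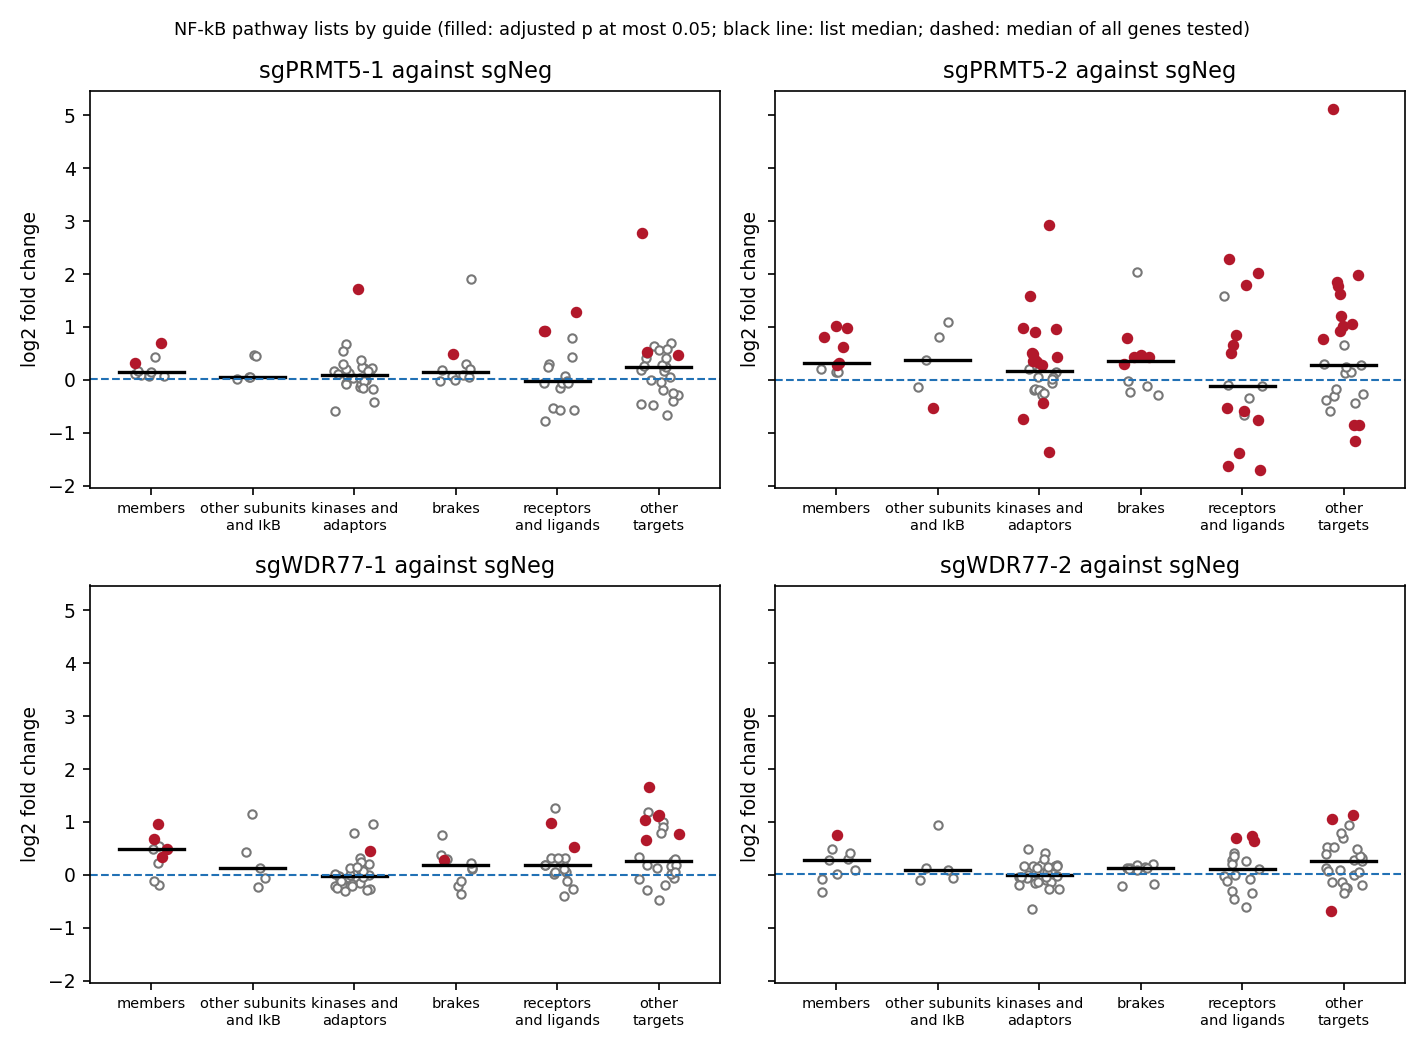
Log2 fold change against sgNeg (y axis) of each tested gene of the members and of 5 other pathway lists (x axis), with 1 panel for each guide; filled points have a limma voom adjusted p of at most 0.05, black lines are list medians and the dashed line is the median of all genes tested. The members' medians are 0.14, 0.32, 0.48 and 0.28.

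Beside the members that rose with both PRMT5 guides, the interleukin genes IL1B and IL1A rose as well. IL1B, an agonist of the interleukin 1 receptor, averaged 99.3 CPM in sgNeg, 240 with sgPRMT5-1 and 485 with sgPRMT5-2, and rose by log2 fold changes of 1.27 and 2.29 (limma voom adjusted p 1.17e-07 and 4.60e-13). IL1A averaged 147, 278 and 509 CPM in the same conditions, with log2 fold changes of 0.93 and 1.80 (limma voom adjusted p 1.13e-05 and 3.23e-11). The growth factor gene CSF2 went from a mean of 0.789 CPM in sgNeg to 5.53 and 28.4 (log2 fold changes 2.77 and 5.13, limma voom adjusted p 0.00279 and 7.63e-08). TNIP1, whose product binds A20, rose by 0.48 and 0.79. Those calls were present in all 15 alternatives of each comparison. TRAF1, an adaptor gene, rose by 1.71 with sgPRMT5-1 and 2.92 with sgPRMT5-2, and IL6 by 1.99 with sgPRMT5-2. The TRAF1 call with sgPRMT5-1 was lost without any 1 of sgNeg replicates 1, 2 and 3 or sgPRMT5-1 replicate 3 (limma voom adjusted p 0.0575 to 0.0921). PTGS2 (0.52) and PLAU (0.46) were called with sgPRMT5-1 in 5 and 9 of 15 alternatives, PTGS2 losing its call without any 1 of the 6 libraries and PLAU without any but sgNeg replicate 1.

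Several pathway genes were called with sgPRMT5-2, the guide with 6 members called. Among adaptors, IRAK2 (1.58) and CARD10 (0.98) rose and TRAF5 fell by 1.36 on the log2 scale. The other adaptor or kinase genes that were called lower, named after their values were seen, were MAP3K8 (-0.75, lost without sgPRMT5-2 replicate 1 at -0.50, limma voom adjusted p 0.121) and SHARPIN (-0.44). SHARPIN was not called without sgNeg replicate 1 or 2 or any 1 of sgPRMT5-2 replicates 1, 2 and 3 (limma voom adjusted p 0.0518 to 0.144). Among brakes, CYLD (0.43), ITCH (0.43) and TNIP2 (0.46) rose, TNIP2 not without sgNeg replicate 2, sgPRMT5-2 replicate 1 or sgPRMT5-2 replicate 3 (limma voom adjusted p 0.0526 to 0.0639). OTULIN (0.29), also named after its value was seen, completed the 5 brakes, and lost its call without sgNeg replicate 1 or 3 or any 1 of sgPRMT5-2 replicates 1, 2 and 3 (limma voom adjusted p 0.0712 to 0.208). The interleukin 1 receptor gene IL1R1 fell by 1.70, from a mean of 7.26 to 2.19 CPM. Among targets, KLF6 (1.86) and IER3 (1.78) rose, and IRF1 (-0.86), LCN2 (-1.16) and NINJ1 (-0.85), named after their values were seen, fell. TNFSF15, a ligand gene of the TNF family, rose by 2.02 with sgPRMT5-2, from a mean of 9.19 to 37.2 CPM. TNFSF15 was also called with sgPRMT5-1 (0.92), sgWDR77-1 (0.99) and sgWDR77-2 (0.74), in 12, 14 and 6 of 15 alternatives. The sgWDR77-1 call was lost only without the 3 libraries over 5% outside genes (0.45, limma voom adjusted p 0.211). With sgPRMT5-1 that call was lost without sgNeg replicate 2, sgNeg replicate 3 or sgPRMT5-1 replicate 3, and with sgWDR77-2 without any 1 of the 6 libraries compared, or without the 3 libraries over 5% outside genes (limma voom adjusted p 0.0538).

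Calls with the WDR77 guides come next. With sgWDR77-1, where NFKBIA, BIRC3 and ICAM1 were called, the chemokine genes CCL20 (1.65, limma voom adjusted p 0.00147) and CXCL1 (1.04, limma voom adjusted p 0.00120) and the iron-binding protein gene LCN2 (1.12, limma voom adjusted p 0.00305) also rose. Without the 3 libraries over 5% outside genes, which leaves sgWDR77-1 replicate 1 alone, they were at 1.35, 0.84 and 0.91, and IL1A was at 0.56. SOD2, the mitochondrial superoxide dismutase gene, rose by 1.11 (limma voom adjusted p 0.00293), but by 0.79 without the 3 libraries over 5% outside genes (limma voom adjusted p 0.0861). With sgWDR77-2, where NFKBIZ was called, the immediate early genes KLF6 (1.14, limma voom adjusted p 8.71e-07) and DUSP1 (1.06, limma voom adjusted p 3.74e-06) rose. IL1A rose with both WDR77 guides, by 0.53 and 0.70 (limma voom adjusted p 0.00235 and 0.000171), and IL1B by 0.64 with sgWDR77-2 (limma voom adjusted p 0.000352). The kinase adaptor gene TAB3 (0.45) and TNIP1 (0.27) were called with sgWDR77-1. TAB3 was not called with only the groups compared (limma voom adjusted p 0.0671), and was at 0.65 in that replicate alone without the 3 libraries over 5% outside genes. TNIP1 was not called without sgNeg replicate 2 or 3 or sgWDR77-1 replicate 2 or 3 (limma voom adjusted p 0.0526 to 0.191), or without the 3 libraries over 5% outside genes (limma voom adjusted p 0.0593). NINJ1 fell with sgWDR77-2 by 0.68, a call lost without sgNeg replicate 1, sgWDR77-2 replicate 1 or sgWDR77-2 replicate 2 (limma voom adjusted p 0.0536 to 0.107).

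The genes whose level followed each member most closely over the 15 libraries were found by Pearson r of log2 CPM among 11838 genes. These values describe 5 conditions of 3 libraries each and carry no test. NFKBIA was most like CXCL8 (0.936), SLC39A8 (0.919) and SOD2 (0.905). BIRC3 was most like EVI5 (0.963), CLIC4 (0.934) and the member NFKBIA (0.896), the closest pair of members. ICAM1 was most like ALDH1A3 (0.938), SEMA3C (0.927) and FEZ1 (0.900), and TNFAIP3 most like CYLD (0.918), SGK1 (0.890) and UHRF2 (0.888). CYLD, like TNFAIP3, encodes a deubiquitinase that restrains the pathway. Among the subunits, NFKB1 was most like NF2 (0.956), ELF4 (0.951) and ANXA3 (0.946), and RELA most like KCTD5 (0.953), CD2BP2 (0.945) and ROR1 (0.942). RELB was most like GDF15 (0.953), MAP1LC3B (0.937) and FBLIM1 (0.933), and NFKB2 most like FURIN (0.930), CCDC9B (0.926) and ITPRIP (0.920). NFKBIZ had the weakest partners, C1RL-AS1 (0.849), DNMT3B (0.848) and JUN (0.830). Between members r ranged from -0.569 (RELA and NFKBIZ) to 0.896, with NFKB1 and RELB at 0.844.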

How the data were processed

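RNA of 15 HSC-5 libraries was sequenced. Per the submitters' processing notes and methods, the authors aligned reads to hg38 with STAR, deposited raw read counts per gene from HTSeq, and used DESeq2. The labels name a stranded kit and the methods another TruSeq kit. No filter or scaling was applied to the deposited counts. Reads outside genes were kept out of library sizes (2.75% to 7.16%).

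Counts were scaled by trimmed means of M values (trims 0.3 and 0.05), and genes with a mean normalized count of at least 3 were tested with limma voom (limma 3.58.1, R 4.3.3; 5 groups, 10 residual degrees of freedom), tested on simulated data. Log2 CPM used a prior count of 2. Positions and exon lengths are from GENCODE v44, which matched 60463 of 60649 gene IDs. Replicates of every pair differed beyond counting noise. Members, 7 other lists (121 genes) and tests were chosen with earlier results of these data known. From each other list, up to 4 called genes with the largest change in a guide and a mean normalized count of at least 10 were eligible to be named.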

Additional observations from a re-analysis of the deposited data

Results flagged for a closer look

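For 7 member values a direct test of guides or knockouts passed the threshold. Between the PRMT5 guides, sgPRMT5-2 was higher than sgPRMT5-1 for NFKB1 (log2 fold change 0.29, called in 8 of 14 alternatives) and TNFAIP3 (0.87, 14 of 14). Between the WDR77 guides, sgWDR77-2 was lower than sgWDR77-1 for ICAM1 (-0.55, called in 11 of 15 alternatives). PRMT5KO was higher than WDR77KO for NFKB2 (0.44), RELA (0.29) and RELB (0.36), each in 21 of 21 alternatives, and lower for NFKBIZ (-0.51, 20 of 21). PRMT5KO and WDR77KO were compared as means of their guides, and only the TNFAIP3 difference between guides to a gene was called in every alternative.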

How the results depend on the processing

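The planned edgeR and DESeq2 alternatives were not run, because the unit check could not read the files as counts, although they hold whole read counts. Of 63 member values (9 members in 7 comparisons) 20 were called, 10 of them in every alternative run and 10 lost in at least 1; 11 others were called in at least 1. No called value changed sign, and 15 uncalled values did in at least 1 alternative. The count of members called with sgPRMT5-1 went from 2 to 1 (ICAM1) with RLE factors, library totals alone, the replicate block, limma-trend, only the groups compared, and the setting without the 3 libraries over 5% outside genes, which was chosen after seeing the data. With sgWDR77-1 it went from 4 to 6 with upper-quartile factors (NFKBIZ and TNFAIP3 added), to 5 with limma-trend (TNFAIP3), to 3 with no filter on low counts, and to 2 (BIRC3 and ICAM1) with only the groups compared and without those 3 libraries, where the lone sgWDR77-1 library is assumed to vary like the other groups. The share of all genes called went from 9.48% to 2.71% and 22.0% in these last 2 settings. With sgPRMT5-2 it went from 6 to 5 (without NFKB2) with RLE factors, library totals alone and the replicate block, and stayed at 6 with no filter on low counts, where NFKB2 was lost and TNF, at 1 count a library, was called. With sgWDR77-2 it went from 1 to 2 with upper-quartile factors and to 0 with no filter on low counts, where more genes are tested. For sgPRMT5-2 against sgPRMT5-1 it went from 2 to 1 with the replicate block, to 3 with upper-quartile factors (RELB added) and to 5 with only the groups compared, where the share of all genes called went from 7.53% to 19.2%. For sgWDR77-2 against sgWDR77-1 it went from 1 to 0 with only the groups compared and to 2 without those 3 libraries, while the share of all genes called went from 2.41% to 0.121% and 17.8%. Leaving out 1 library gave 1 to 1 (sgPRMT5-1), 4 to 5 (sgPRMT5-2), 1 to 5 (sgWDR77-1), 0 to 3 (sgWDR77-2), 1 to 4 (sgPRMT5-2 against sgPRMT5-1), 0 to 2 (sgWDR77-2 against sgWDR77-1) and 4 to 6 members (PRMT5KO against WDR77KO). The share of all genes called then ran from 0.824% to 2.43%, 22.1% to 27.8%, 4.82% to 10.3% and 2.79% to 3.92% for the guides against sgNeg. For the other comparisons, in the order given, it ran from 2.41% to 11.7%, 0.319% to 3.59% and 20.4% to 30.9%. With sgWDR77-1 the count of members was 1 without sgNeg replicate 2 and 2 without sgNeg replicate 3, where 7.88% and 4.82% of all genes were called. With sgWDR77-2 the count of members was 0 without sgNeg replicate 3 or sgWDR77-2 replicate 2 or 3, and 3 without sgWDR77-2 replicate 1. The share of all genes called was 3.76%, 2.79%, 3.92% and 2.92% in these settings, against 4.79% as reported. The cause was not tested. Replicate numbers did not pair the libraries: r ranged from -0.33 to 0.27 over 30 pairs, and 4 of 15 libraries matched their own number best. With the replicate block the adjusted p of NFKB1 (sgPRMT5-1, and sgPRMT5-2 against sgPRMT5-1) and of NFKB2 (sgPRMT5-2) rose above 0.05, and no other member's call changed.

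The share of called genes that were higher moved with the scaling: from 43.8% to 27.1% (sgPRMT5-1, library totals alone), from 52.6% to 62.9% and 37.9% (sgPRMT5-2, upper-quartile and library totals), from 37.7% to 52.0% (sgWDR77-1, upper-quartile), from 47.1% to 59.1% (sgPRMT5-2 against sgPRMT5-1, upper-quartile), from 76.4% to 59.8% (sgWDR77-2 against sgWDR77-1, library totals) and from 57.8% to 41.0% (PRMT5KO against WDR77KO, library totals). Depth limits TNF and the lowest genes.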
